A study of Mus musculus with 8 samples.

Results

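The zinc finger genes described here were all autosomal probes whose gene name on the array begins with Zfp, the older mouse symbol for zinc finger protein. The rule found 1256 probes of 220065 on the autosomes, under 221 gene names. Probes less than 1 Mb from the next Zfp probe were joined into 128 chains. Of these, 30 held at least 2 genes and are called clusters, with 124 genes and 456 probes, and 98 held a lone gene name, with 800 probes in all. The rule uses names and positions and no measured log2 ratio, though it was chosen with earlier results of these data known. The widest gap joined was 921 kb, between Zfpm1 and Zfp276 on chromosome 8, and the narrowest gap not joined was 1060 kb, between Zfp206 and Zfp598 on chromosome 17. In RefSeq (assembly GRCm38.p6, used for names and neighbours only), 181 of the 221 names were current and 40 matched a synonym. Members thus include Zscan12 (as Zfp96), Zkscan3 (as Zfp306) and Ikzf2 (as Zfpn1a2). They also include Rnf114 (as Zfp313), Arfgap2 (as Zfp289) and Zpr1 (as Zfp259), so the members need not all belong to 1 gene family. A gene name on a probe need not mean that the probe lies inside that gene: Zfp353 named 95 probes on chromosome 4 and 56 on chromosome 8, and it was kept as a lone gene in both places.

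Liver DNA of 8 male C57BL/6 mice was examined by array comparative genomic hybridisation, which reads DNA copy number, with 1 array per mouse. The 6 hepatocellular carcinomas (HCC), tumours 1 to 6, came from FEAT transgenic mice of 16, 21, 20, 18.5, 22 and 12 months, and 1 normal liver came from a FEAT transgenic mouse of 13 months. FEAT is another name of Mettl13, a methyltransferase gene, and no source used here gives the promoter of the transgene. Per the labels tumour 4 had spread to the lung, while the other tumours were recorded in the liver. The remaining sample was the normal liver of a wild-type mouse of 6 months. Every sample was labelled with Cy3 and set against Cy5-labelled normal liver DNA of a wild-type C57BL/6 male of 6 months, so all 8 ratios share that kind of reference. In tumours 1 to 5 the mice were older than either non-tumour mouse, and effects of tumour and of age cannot be told apart. Every FEAT mouse was older than the wild-type mouse, so effects of the transgene and of age cannot be told apart either. Neither non-tumour group has a replicate, and the number of arrays limits the precision of every comparison. Tumour DNA also holds DNA of other cells, so a smaller ratio may mean a change in fewer cells or a smaller change in all of them.

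Zinc finger proteins of the Cys2-His2 type are the largest family of DNA-binding proteins in mammals. Many carry a KRAB domain, which recruits the co-repressor Trim28 and with it the histone methyltransferase Setdb1 and the heterochromatin proteins Cbx1, Cbx3 and Cbx5, and they silence transposable elements in this way. Many of the genes arose by tandem duplication, so that neighbours in such a cluster have repeated, similar finger exons. Such clusters are known to differ in gene content between mouse strains. The clusters described here were joined by name and distance alone, and whether their genes share an origin was not examined. In array hybridisation, probes with copies elsewhere would report on several genes at the same time.

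Repeats were searched for among the Zfp probes only, which does not cover finger sequence beyond the linker or copies in genes without a probe. The finger linker, the short and highly conserved peptide that joins neighbouring fingers, was searched on both strands as the coding sequence of that peptide with every codon allowed. It occurred in 0 of the 1256 Zfp probes and in 1 of all 220065 autosomal probes (0.000454%). Likewise, 0 of the 1256 probes shared a stretch of 20 bases on either strand with another Zfp probe. Their mean GC content was 36.6%, the same as over all autosomal probes (36.6%), and they were 45 to 60 bases long. On the wild-type array 99.5% of Zfp probes were well above background, against 99.6% of all autosomal probes. Of 391 autosomal protein-coding Zfp symbols in RefSeq, 186 (47.6%) were carried by a Zfp-named probe: 118 of 280 symbols within 1 Mb of another (42.1%) and 68 of 111 lone symbols (61.3%). A further 62 symbols matched another name on the array, and 143 were not matched.

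The probes of 2 clusters are printed because these clusters stood lowest and highest relative to their flanks, as described further on. Sequences are those of the array design, 5′ to 3′ as listed there, with CpG dinucleotides in capitals. The genome build and the strand are not given in the sources used here. The lowest cluster, on chromosome 7, has 4 probes, at chr7:4496695-4496739 (Zfp628), chr7:4568001-4568047 and chr7:4570450-4570497 (both Zfp579) and chr7:4593161-4593220 (Zfp524):
Zfp628: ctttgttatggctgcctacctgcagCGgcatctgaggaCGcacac
Zfp579, probe A: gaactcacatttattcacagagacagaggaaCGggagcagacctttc
Zfp579, probe B: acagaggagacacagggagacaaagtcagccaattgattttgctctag
Zfp524: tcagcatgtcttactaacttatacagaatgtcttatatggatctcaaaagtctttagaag

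The highest cluster, on chromosome 9, has 4 probes of Zfp445, at chr9:122556608-122556667 (A), chr9:122562782-122562841 (B), chr9:122566338-122566397 (C) and chr9:122570712-122570771 (D), and 1 of Zfp105, at chr9:122630476-122630532:
Zfp445, probe A: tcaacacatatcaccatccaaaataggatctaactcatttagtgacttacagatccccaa
Zfp445, probe B: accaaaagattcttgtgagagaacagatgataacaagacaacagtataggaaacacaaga
Zfp445, probe C: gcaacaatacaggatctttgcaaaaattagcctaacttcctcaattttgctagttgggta
Zfp445, probe D: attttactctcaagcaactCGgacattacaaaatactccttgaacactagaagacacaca
Zfp105: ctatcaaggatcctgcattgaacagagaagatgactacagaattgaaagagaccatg

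All values are log2 of test over reference DNA, after the autosomal median of the array was subtracted. The level of a cluster or gene is the median over its probes. Its departure is that level minus the level of its flanks, the nearest 20 probes on each side that are not Zfp probes. A single Zfp gene inside a cluster was set against the flanks of the whole cluster. Genes outside the Zfp set were set against the nearest 20 probes of any kind on each side of the gene. Shares over all units given beside single Zfp genes of a cluster thus rest on closer flanks. A departure of 0.3 or more in size is described as called, with no test. Between neighbouring probes the noise (SD) ranged from 0.22 in tumour 5 and the wild-type liver to 0.49 in tumour 4.

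Levels of several clusters were shifted together with their chromosomes. In tumour 5 all 8 clusters of chromosome 7 were low, between -0.44 and -0.21, with a mean level of -0.34 ± 0.07 (SD over 8 clusters). Their flanks had a mean level of -0.28 and the whole chromosome a median of -0.28 in that tumour. Chromosome 7 holds 52 of the 124 clustered genes, among them Zfp568, a KRAB protein that represses a placental Igf2 transcript, and Zfp36, an RNA-binding protein that destabilises cytokine mRNAs. In the other 7 arrays the mean level of the same clusters ranged from -0.14 in tumour 4 to 0.03 in tumour 3. Of the 13 chains on chromosome 7 with at least 3 probes, lone genes included, 13 were below 0 in tumour 5. The lone Zfp473 was nearest to 0 there, at -0.01.

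Chromosome 9 was lower still in tumour 5, with a median of -0.31, but its clusters differed: Zfp75-Zfp426 was at -0.27 with its flanks at -0.35, and Zfp445-Zfp105 was at 0.0059 with its flanks at -0.33. On chromosome 13 the cluster mean was -0.13 in that tumour, with flanks at -0.16 and a chromosome median of -0.13.

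**Figure D1:**
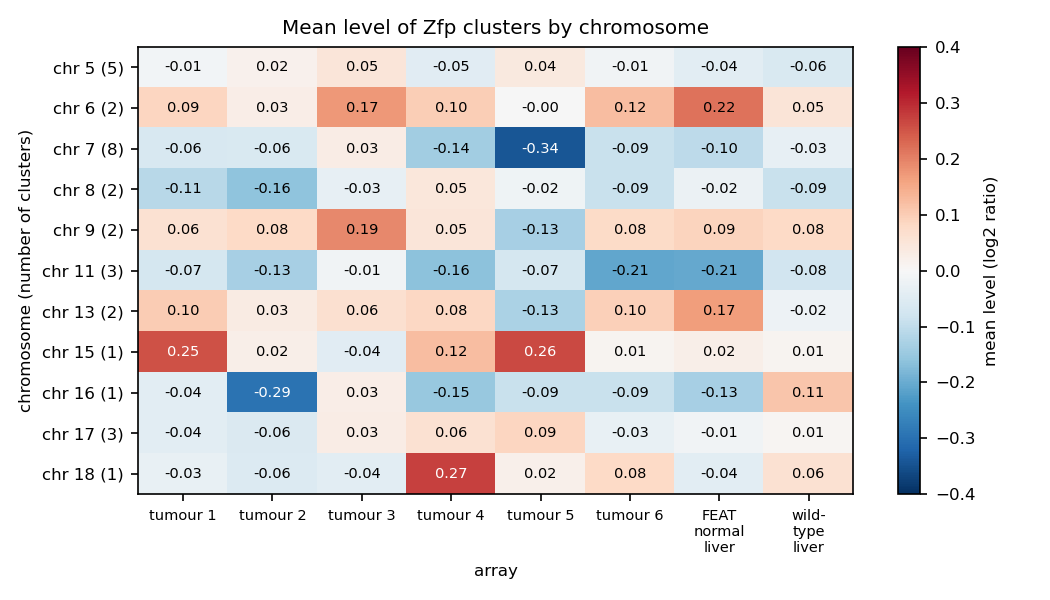
Mean level (log2 ratio, colour and printed value) of the Zfp clusters on each chromosome, with the number of clusters in brackets, for the 8 arrays. Chromosome 7 is low in tumour 5 (-0.34), and chromosome 15 is high in tumours 1 (0.25) and 5 (0.26).

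On chromosome 15 the single cluster, Zfp41 to Zfp647 with 5 genes and 14 probes, had a level of 0.25 in tumour 1 and 0.26 in tumour 5. In the remaining arrays its level was 0.02, -0.04, 0.12 and 0.01 in tumours 2, 3, 4 and 6, 0.02 in the FEAT normal liver and 0.01 in wild-type liver. Tumours 1 and 5 lay above all other arrays. Lone genes of chromosome 15 shared this: Zfpm2, a cofactor of Gata factors measured by 59 probes, was at 0.37 in tumour 1, 0.29 in tumour 5 and 0.08 in the wild-type liver. Zfp406, now Zfat, was at 0.50, 0.34 and 0.01 in the same arrays. Departures of both from their flanks were small, at most 0.16 for Zfpm2 and 0.10 for Zfp406 in any array, so their flanks were high as well.

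Across the 30 clusters the level followed the flank level in tumour 5 (r = 0.77) and much less elsewhere (r from -0.12 in the FEAT normal liver to 0.29 in tumour 2). These r values are across clusters of 1 array, which share the library and the neighbourhood of each cluster, and are descriptions only. In tumour 5, 9 clusters were at -0.2 or lower and 2 at 0.2 or higher, and the flanks of all 11 were shifted by at least 0.15 the same way. The chromosome 18 cluster (Zfp397, Zfp35 and Zfp191) was at 0.27 in tumour 4, with its flanks at 0.255, and between -0.06 and 0.08 in the other arrays. The chromosome 16 cluster (Zfp263 and Zfp597, 4 probes) was at -0.29 in tumour 2, with its flanks at -0.10. In tumour 4, 4 clusters were at -0.2 or lower, none of them with a flank at -0.15 or lower.

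**Figure D2:**
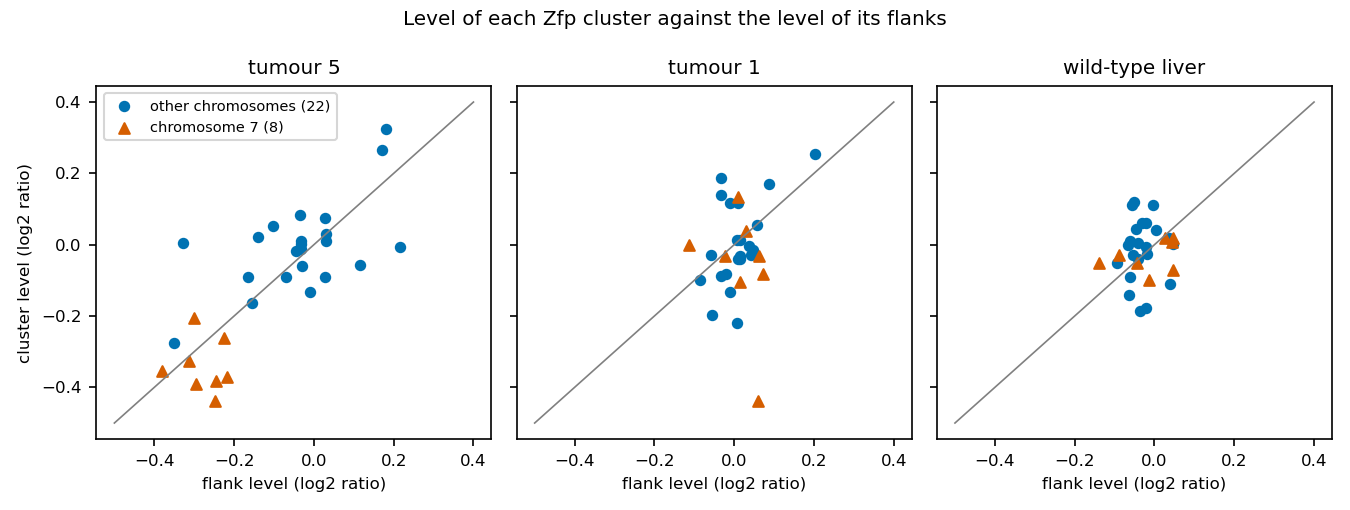
Level of each of the 30 Zfp clusters (y axis, log2 ratio) against the level of its flanks (x axis, log2 ratio) in tumour 5, tumour 1 and the wild-type liver, with the 8 clusters of chromosome 7 as triangles; the line marks equal levels. In tumour 5 the chromosome 7 clusters lie together at low flank and low cluster levels.

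Relative to the flanks, few clusters stood out in any liver. The departure reached the called size in 1, 0, 0, 7, 1 and 3 of 30 clusters in tumours 1 to 6. The FEAT normal liver had 4 called clusters and the wild-type liver 0. Over all 13227 units with at least 3 probes (the Zfp chains and every other named gene), the share called was 5.16%, 3.63%, 10.6%, 26.6%, 2.93% and 13.1% in tumours 1 to 6, 9.59% in the FEAT normal liver and 2.79% in wild-type liver. Of the 68 lone genes with at least 3 probes, 2.94%, 10.3%, 20.6%, 25.0%, 8.82% and 10.3% were called in tumours 1 to 6. In the FEAT normal liver 13.2% of them were called and in the wild-type liver 5.88%. Lone genes were thus above the share of all units in tumours 2, 3 and 5 and in both non-tumour livers. They were below it in tumours 1, 4 and 6, and these differences were not tested. Of the 12 cluster calls in HCC 7 lay in tumour 4, the array with the most noise, and without it there were 5. The part of the noise was not tested. At least 1 array called 7 of 30 clusters and 29 of 68 lone genes, where 40.4% of all units were called at least once. Clusters had a median of 12 probes, and lone and other genes 5. The same sign in all 8 arrays was found in 7 clusters, 4 above and 3 below their flanks, against 19.0% of all units.

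**Figure D3:**
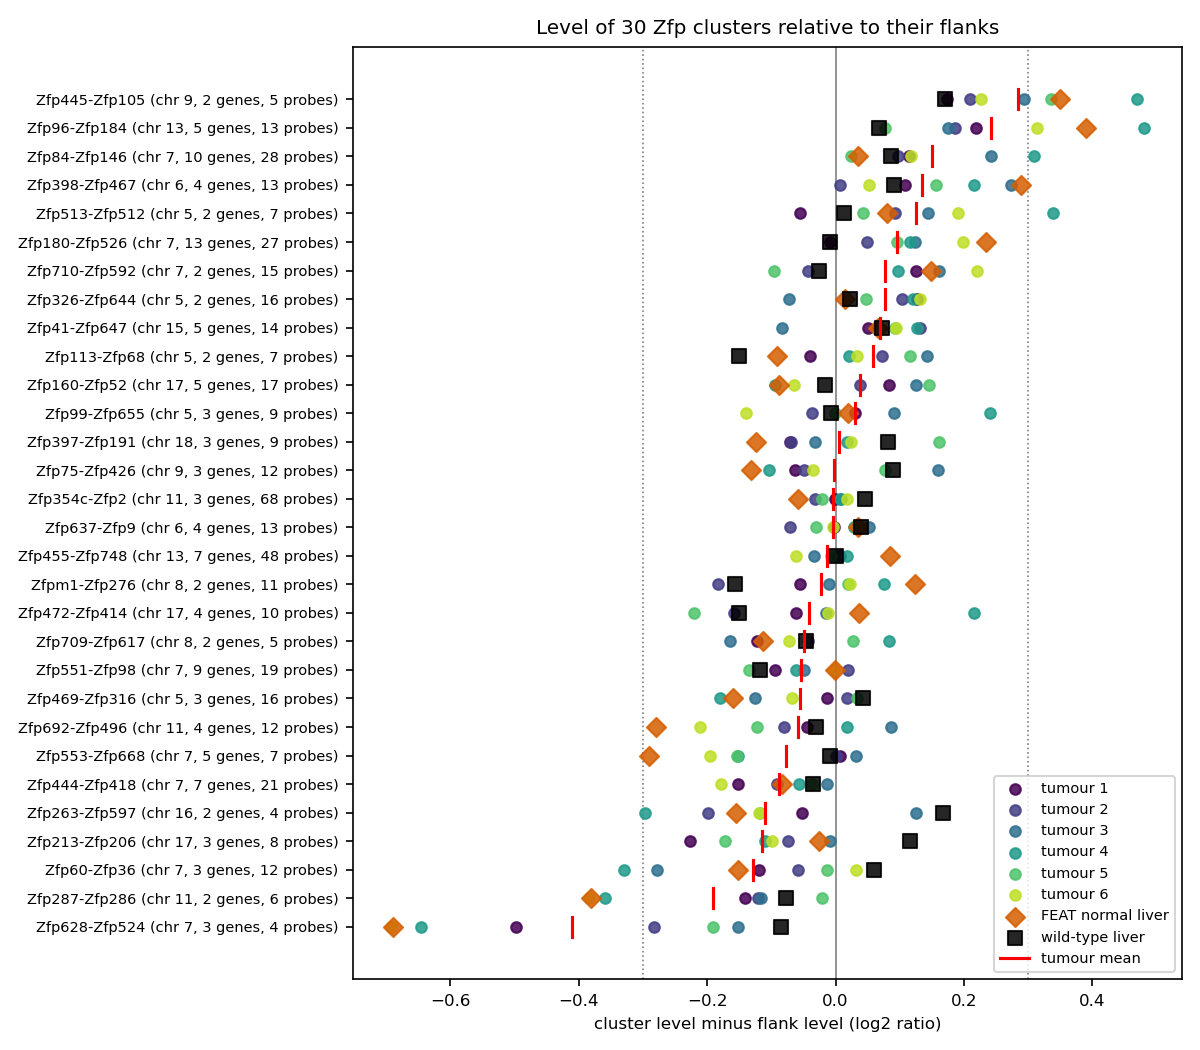
Departure of each of the 30 Zfp clusters from its flanks (x axis, log2 ratio), 1 point per array, with the mean of the 6 tumours as a red bar; dotted lines mark 0.3 in either direction. The Zfp628-Zfp524 cluster lies lowest and the Zfp445-Zfp105 cluster highest; all wild-type values lie inside the dotted lines.

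The lowest cluster was Zfp628, Zfp579 and Zfp524 on chromosome 7. Its departure was -0.50, -0.28, -0.15, -0.65, -0.19 and -0.69 in tumours 1 to 6, -0.69 in the FEAT normal liver and -0.09 in wild-type liver. Every value was below 0, with the wild-type liver the closest to 0 and the FEAT normal liver among the lowest tumours. The tumour mean was -0.41 ± 0.23 (SD, n = 6). The value rests on 4 probes that behaved differently. Both Zfp579 probes printed above were below their flanks in all 8 arrays, from -0.91 to -0.29 for probe A and from -0.93 to -0.11 for probe B. The Zfp628 probe ranged from -0.81 to 0.52, and the Zfp524 probe, a gene whose protein binds telomeres, from -0.30 to 0.18. The 4 probes had a mean GC content of 45.5%, higher by 7.9 percentage points than that of their flanks. With the GC trend of each array removed, the tumour mean was -0.37 ± 0.18, with -0.68 in the FEAT normal liver and -0.12 in wild-type liver.

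The highest cluster was Zfp445 with Zfp105 on chromosome 9; Zfp445 is a KRAB protein that helps to maintain genomic imprints. Departures of 0.17, 0.21, 0.29, 0.47, 0.33 and 0.23 were measured in tumours 1 to 6, 0.35 in the FEAT normal liver and 0.17 in wild-type liver. All 8 arrays were above 0, and the tumours (mean 0.28 ± 0.11, SD, n = 6) lay on both sides of the FEAT normal liver. Here too probes within a gene disagreed: probes C and D of Zfp445 averaged 0.58 and 0.52 over the tumours, while its probes A and B averaged 0.06 and -0.01. The Zfp105 probe averaged 0.25 and was at -0.06 in the wild-type liver. GC content differed little from the flanks (0.1 percentage points), and the GC-corrected tumour mean was 0.29.

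In the histone-rich region of chromosome 13, the cluster from Zfp96 (Zscan12) to Zfp184 holds 5 genes and 13 probes, with Zkscan3, a repressor of autophagy genes, among them. Its departure was 0.22, 0.19, 0.17, 0.48, 0.08 and 0.31 in tumours 1 to 6, 0.39 in the FEAT normal liver and 0.07 in wild-type liver. Again all 8 values were above 0 and the FEAT normal liver fell inside the range of the tumours (mean 0.24 ± 0.14). Its member Zfp192 (Zkscan8), with 4 probes, had the higher values, 0.29, 0.13, 0.38, 0.85, 0.32 and 0.30 in tumours 1 to 6, 0.37 in the FEAT normal liver and 0.51 in wild-type liver. Tumour 4 was the highest, and the wild-type liver came next.

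On chromosome 11 the pair Zfp287 and Zfp286 was at -0.14, -0.12, -0.12, -0.36, -0.02 and -0.38 in tumours 1 to 6, -0.38 in the FEAT normal liver and -0.08 in wild-type liver. For the tumours the mean was -0.19 ± 0.15 (SD, n = 6), and the FEAT normal liver lay at the level of tumours 4 and 6. Of the other clusters with the largest tumour means, Zfp84-Zfp146 on chromosome 7 was at 0.15 ± 0.10, Zfp398-Zfp467 on chromosome 6 at 0.14 ± 0.10, Zfp60-Zfp36 on chromosome 7 at -0.13 ± 0.15 and Zfp513-Zfp512 on chromosome 5 at 0.13 ± 0.13. None of these 4 was called in more than 1 array. The mean of Zfp513-Zfp512 fell to 0.02 with means of probes, 0.065 with GC correction and 0.08 without tumour 4. Over the 30 clusters the tumour mean departure correlated with the difference in GC content from the flanks (r = -0.55, and -0.46 after GC correction). Before correction r was negative in the non-tumour livers too, at -0.46 in the FEAT normal liver and -0.25 in wild-type liver. Single tumours ranged from -0.63 in tumour 1 to -0.23 in tumour 5. The clusters were measured on the same arrays, and this is a description.

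Of the 8 clusters with the most genes, Zfp96-Zfp184 and Zfp84-Zfp146 are described above, and the tumour means of the other 6 were within 0.10 of their flanks. The largest, Zfp180 to Zfp526 on chromosome 7 with 13 genes and 27 probes, had a tumour mean of 0.10 ± 0.07 and was at 0.23 in the FEAT normal liver and -0.01 in wild-type liver. Zfp551-Zfp98 on chromosome 7, with 9 genes including Mzf1 (as Zfp98), a myeloid transcription factor, had a mean of -0.05 ± 0.06. Zfp444-Zfp418 on chromosome 7 had 7 genes and a mean of -0.09 ± 0.07. The best-measured of these, Zfp455-Zfp748 on chromosome 13 with 7 genes and 48 probes, had a mean of -0.01 ± 0.03 and was at 0.09 in the FEAT normal liver and -0.00 in wild-type liver. Zfp160-Zfp52 on chromosome 17 and Zfp41-Zfp647 on chromosome 15 were at 0.04 ± 0.10 and 0.07 ± 0.08. Means this small depend on the settings: with flanks of 10 probes Zfp41-Zfp647 turned to -0.07 and Zfp551-Zfp98 to 0.0019, and with means of probes Zfp455-Zfp748 turned to 0.0010.

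Single genes inside these clusters spread more widely than the clusters, on fewer probes. In Zfp455-Zfp748 the gene means over the tumours ran from -0.35 for Zfp457 to 0.29 for Zfp459, among 4 genes with at least 3 probes. In Zfp84-Zfp146 they ran from -0.07 for Zfp27 to 0.36 for Zfp82, and in Zfp180-Zfp526 from 0.02 for Zfp180 to 0.28 for Zfp112. Zfp82 itself ranged from 0.07 in tumour 5 to 0.93 in tumour 4, with a mean of 0.36 ± 0.32. Among the genes of these 8 clusters with at least 3 probes, only Zfp192 was called in 4 or more tumours.

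Among all 142 Zfp genes with at least 3 probes, 6 were called in 4 or more arrays, where 3.86% of all units were. They were Zfp192, Zfp207, Zfp295, Zfp322a, Zfp474 and Zfp706. The largest tumour mean belonged to the lone Zfp295 (Zbtb21, a BTB-domain repressor) on chromosome 16, at 0.22, 0.16, 0.51, 0.63, 0.49 and 0.41 in tumours 1 to 6. It was at 0.31 in the FEAT normal liver and 0.42 in wild-type liver, so that the non-tumour livers fell inside the tumours' range; 3 probes were behind each value. Zfp474 on chromosome 18 was below its flanks in all 8 arrays, with a tumour mean of -0.37 ± 0.14, -0.48 in the FEAT normal liver and -0.07 in wild-type liver. Zfp385 (Zfp385a, an RNA-binding protein) on chromosome 15 had a similar order, with -0.31 ± 0.18, -0.55 and -0.00.

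Of the other genes with the largest tumour means, Zfp207, whose protein loads Bub3 onto kinetochores, had a mean of 0.35 ± 0.13, 0.36 in the FEAT normal liver and -0.01 in wild-type liver. Zfp598, the ubiquitin ligase that marks collided ribosomes, was at 0.35 ± 0.17, 0.26 and -0.04 in the same order. For both, all 7 FEAT-line livers lay above the wild-type liver, where 27.8% of all units had all 7 on one side of it. Zfp706 had a mean of 0.33 ± 0.28 and Zfp322a of 0.31 ± 0.34, and each had at least 1 tumour on the other side of 0. In the wild-type liver the lowest genes were Zfp51 at -0.54 and Zfp472 at -0.53. Zfp51 was between -0.07 and 0.13 in the tumours and at 0.34 in the FEAT normal liver. Its wild-type value rests on 2 of 3 probes, at -0.61 and -0.54, the other being at 0.17.

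The lone genes with the most probes lay close to their flanks. These 9 chains of at least 20 probes included Zfp423, a regulator of fat-cell commitment, Zfp521, Zfp536, Zfp533 (Zfp385b) and Ikzf2 (as Zfpn1a2), a lymphoid factor. Over all 8 arrays their departures lay between -0.18 (Zfp536) and 0.29 (Ikzf2, 21 probes). Zfp353 on chromosome 4, with 95 probes, had a tumour mean of -0.03 ± 0.03, and Zfp423 on chromosome 8, with 40 probes, one of -0.07 ± 0.03. The level of Ikzf2 on chromosome 1 was 0.51 in tumour 4 and 0.29 in tumour 5 and 0.07 in the wild-type liver.

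Tumours were next compared with both non-tumour livers, which asks whether a departure came with the tumour. With limma and Benjamini-Hochberg adjustment over 13227 units, 0 of the 98 Zfp chains with at least 3 probes passed an adjusted p of 0.05, and 0.0% of all units did. Without adjustment 5 chains passed 0.05, where 2.52% of all units did. For single genes the counts were 0 of 142 after adjustment (0.0% of all 13271 units) and 4 before it (2.48%). The smallest p belonged to Zfp622, a ribosome assembly factor on chromosome 15: its departure was 0.19, 0.10, 0.14, 0.16, 0.12 and 0.08 in tumours 1 to 6, 0.53 in the FEAT normal liver and 0.35 in wild-type liver. The tumours lay below both non-tumour livers, and the difference was -0.31 (SE 0.07; limma adjusted p = 0.9996). In 4.79% of all units the tumours did not overlap the non-tumour livers, in either direction. In simulated data limma recovered 74.5% of units shifted by 0.6 and 0% of those shifted by 0.3, so shifts of 0.3 were below detection there. The simulation gave all arrays of a unit the same spread and shifted 200 units at once. The arrays here differ in noise, so these rates may not hold for them.

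Over the 30 clusters the difference between tumours and non-tumour livers ran from -0.16 (Zfp213-Zfp206) to 0.18 (Zfp113-Zfp68), with SEs from 0.06 to 0.18. The tumours did not overlap the non-tumour livers in 1 of 30 clusters, against 4.79% of all units. This was Zfp113-Zfp68 on chromosome 5, at -0.04, 0.07, 0.14, 0.02, 0.12 and 0.03 in tumours 1 to 6, -0.09 in the FEAT normal liver and -0.15 in wild-type liver. Tumour 1 was the nearest to the non-tumour livers, and limma gave an adjusted p of 0.9996 for the difference of 0.18 (SE 0.07). Among the 68 lone genes with at least 3 probes, 9 did not overlap, 5 with the tumours higher and 4 lower. That is a larger share than the 4.79% of all units, and the difference in share was not tested.

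All 7 FEAT-line livers were then set against the wild-type liver, a comparison that shares every array with the first. The FEAT mice were 12 to 22 months old and the wild-type mouse 6 months. Genotype, tumour and age thus cannot be told apart here. Limma called 0 of 98 chains (0.0% of all units) and 0 of 142 genes (0.0%), and 5 chains (4.65% of all units) and 8 genes (4.63%) had an unadjusted p under 0.05. The lone wild-type array was assumed to vary like the others. In the same kind of simulation, with the same limits, 52.5% of shifts of 0.6 were recovered, with 0% of those of 0.3. In 10 of 30 clusters all 7 FEAT-line livers lay on one side of the wild-type liver, 4 higher and 6 lower, against 27.8% of all units. Cluster differences ran from -0.37 (Zfp628-Zfp524) to 0.20 (Zfp96-Zfp184), with SEs from 0.08 to 0.20. The gene with the smallest p was Zfp51, higher by 0.64 (SE 0.13; limma adjusted p = 0.9529) in the FEAT-line livers.

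Clustered and lone genes were compared through single probes, pooled within each array, so genes with many probes weigh more: 415 of the 800 lone probes belong to 9 chains. The departure of a single probe includes its own noise, with an SD from 0.22 in the wild-type liver to 0.49 in tumour 4. Changes in copy number smaller than that noise would alter this measure little, so similar values do not show similar copy number. The part of the noise was not tested. The median absolute departure of a clustered Zfp probe from its flanks was 0.15, 0.15, 0.22, 0.32, 0.16 and 0.22 in tumours 1 to 6, 0.21 in the FEAT normal liver and 0.15 in wild-type liver. For lone Zfp probes it was 0.16, 0.16, 0.23, 0.34, 0.15, 0.25, 0.21 and 0.15 in the same order. The difference, clustered minus lone, averaged -0.0079 ± 0.013 (SD, n = 8 arrays), and 3 arrays were above 0. It did not pass a two-sided exact permutation test of signs (p = 0.133, adjusted 0.266 over 2 comparisons). With genes in place of probes the direction turned, to 0.0103 (exact permutation p = 0.148), and with means in place of medians of probes the difference was -0.0108 (exact permutation p = 0.0391). Between tumours and non-tumour livers it differed by -0.011 (two-sided exact permutation test over 28 splits, p = 0.321; the smallest possible is 0.0357). All arrays carry the same probes, and cluster departures correlated positively in all 28 pairs of arrays (median r = 0.55). These tests thus measure spread over arrays for this set of probes, and not spread over genes or clusters.

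**Figure D4:**
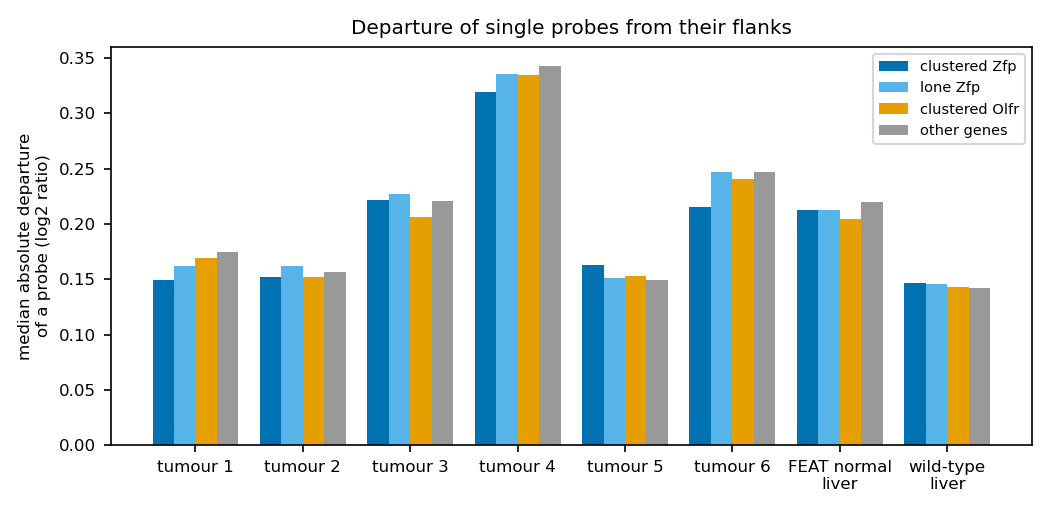
Median absolute departure of single probes from their flanks (y axis, log2 ratio) in each array, for clustered Zfp, lone Zfp, clustered Olfr and other genes. The bars of 1 array stand close together, from 0.14 to 0.15 in the wild-type liver and from 0.32 to 0.34 in tumour 4.

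Olfactory receptor genes (Olfr), the other large tandem family of the mouse, gave similar values. Their 33 clusters with 683 probes, built by the same rule, had a median absolute probe departure of 0.17, 0.15, 0.21, 0.33, 0.15 and 0.24 in tumours 1 to 6, 0.20 in the FEAT normal liver and 0.14 in wild-type liver. Clustered Zfp minus clustered Olfr probes averaged -0.0030 ± 0.015 (SD, n = 8 arrays; two-sided exact permutation test, p = 0.602), with 4 arrays above 0. Here too the test measures spread over arrays, and not over genes or clusters, and the departures include the noise of single probes.

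Co-repressor genes through which KRAB zinc finger proteins act, together with other chromatin genes and the SCAN-domain zinc finger genes Zkscan1, Zkscan3, Zscan2 and Zscan12, were examined as a list of 27, of which 23 were named on an autosome under those symbols and 19 had at least 3 probes. Zscan12 and Zkscan3 are among the Zfp members above. With limma, 0 of 19 passed an adjusted p of 0.05 in either comparison (0.0% of all units in both), and 1 and 0 had an unadjusted p under 0.05, where 2.48% and 4.63% of all units did. The median difference between tumours and non-tumour livers over the 19 was -0.0041, with a range from -0.17 (Dnmt1, the maintenance DNA methyltransferase) to 0.29 (Chd4, a nucleosome remodeller of the NuRD complex). Chd4 was at 0.34, 0.25, 0.18, 0.60, 0.04 and 0.38 in tumours 1 to 6, -0.02 in the FEAT normal liver and 0.04 in wild-type liver. All 6 tumours lay above both non-tumour livers, tumour 5 by little (SE of the difference 0.12; limma adjusted p = 0.9996). Such a lack of overlap, in either direction, was found in 4.79% of all units, and Chd4 had the largest difference of the 19. Trim28 had only 2 probes and was not tested; it was at -0.87 in the FEAT normal liver, -0.08 in the wild-type liver and between -0.04 and 0.29 in the tumours. Setdb1 differed by -0.05 (SE 0.11).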

How the data were processed

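For all 8 arrays the deposited log2 ratios were used; per the series description they come from Agilent Mouse Genome CGH arrays read with Feature Extraction and CGH analytics 3.4. Only the wild-type array's scanner file was used here: per the file headers the software was Agilent Feature Extraction, version 9.1.3.1 (CGH-v4_91 protocol), its LogRatio column is log10, and its intensity columns hold signals and backgrounds. On that array the deposited log2 value equalled the scanner's log10 ratio with the sign turned (r = -1) and the base changed, plus 0.0014, so higher means more test DNA; direction on the other 7 arrays rests on the labels' dyes. Other deposited columns used, such as names, positions and flags, are neither. The autosomal medians subtracted lay between -0.06 and 0.10. Of autosomal probes, 68.1% carry a name, with a median spacing of 7.85 kb.

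Departures were tested with limma 3.58.1 in R 4.3.3 over all units with at least 3 probes, Benjamini-Hochberg at 0.05, without covariates; other values used Python 3.11.15, numpy 2.4.6, pandas 2.3.3, scipy 1.17.1, statsmodels 0.14.6 and matplotlib 3.10.9. GC trends were removed by lowess with a span of 0.3. Limma was tested on simulated data with 200 shifted units of 13227, and the departures on 15 simulated clusters shifted by 0.5, which gave a mean of 0.52. Named were units past the adjusted threshold, the 8 clusters with most genes (ties by probe number), the 8 with the largest tumour mean, the 10 genes with the largest tumour mean and the 5 with the largest wild-type value, and a list of co-repressor, chromatin and SCAN-domain genes; Zfp622, Zfp113-Zfp68 and the lone genes with at least 20 probes were chosen after their values were seen. Members and lists were chosen with earlier results of these data known. Alternatives covered flanks of 10, 50 and 100 probes, means, chain distances of 0.5 and 2 Mb, at least 1 or 5 probes, calling sizes of 0.2 and 0.5, dim probes, GC, the control and each tumour left out.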

Additional observations from a re-analysis of the deposited data

Results flagged for a closer look

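Over the 6 tumours, 53 sets of values (30 cluster departures, named genes and mean levels by chromosome) were examined for a sample far from the others, and 2 were found, where chance gives about 2.65. The departure of Zfp192 was 0.85 in tumour 4, the array with the most noise, against a median of 0.30 in the other tumours. The mean level of the Zfp clusters on chromosome 13 was -0.13 in tumour 5, against a median of 0.08 in the others. In tumour 5 the flanks of these clusters were at -0.16 and the whole chromosome at -0.13, so that the clusters did not stand apart from their chromosome there.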

How the results depend on the processing

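No paired analysis was possible because the labels give no replicate numbers that groups share and each non-tumour group holds 1 array. The limma counts of Zfp chains and genes stayed at 0 under every alternative run (19 and 18 for tumours against non-tumour livers, 17 and 16 for FEAT-line against wild-type), each tumour left out included, and the wild-type calls stayed at 0 under 14. Of the wild-type alternatives, a calling size of 0.5 and a minimum of 1 or 5 probes could not have added a call. The 12 calls in HCC became 7 with means of probes, 6 with a chain distance of 2 Mb, and 28 and 2 with calling sizes of 0.2 and 0.5. Over the 98 clusters of genes described as zinc finger, KRAB or SCAN, an alternative chosen after seeing the data, there were 38. The 12 were counted over 30 clusters, so these counts cannot be compared directly. Leaving out a tumour gave 5 to 12, the lowest without tumour 4. Clustered minus lone departure was -0.0108 with means of probes (exact permutation p = 0.0391) and turned to 0.0103 with genes in place of probes (p = 0.148); leaving out a tumour gave -0.0108 to -0.0045. Clustered Zfp minus Olfr turned to 0.0005 with GC correction, and leaving out a tumour gave -0.0056 to 0.0002, the highest without tumour 6. The causes were not tested. For the 14 named clusters, 166 of 168 alternative tumour means moved by less than the SD over tumours. These include the means with a tumour left out, which cannot move by that much, so they are no test of stability. Only the mean of Zfp628-Zfp524 (-0.41) was of the called size, and it kept its sign. The small means of Zfp41-Zfp647, Zfp551-Zfp98 and Zfp455-Zfp748 changed sign, as given above. Means under 0.15 could still move by over 1.5 times. With normexp on the wild-type scanner signals the largest departure of a cluster was 0.20 and cluster departures correlated with the deposited ones at r = 0.43 (30 clusters, 1 array), so wild-type departures of this size are near the limit of the measurement. Clusters with few probes on arrays with much noise limit all values.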
